A study of Homo sapiens with 6 samples.

Results

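Among the messenger RNAs that were lower when C666-1 cells were grown without serine and glycine, 7 little-studied genes had some of the deepest falls: ARFRP1, REX1BD, PGGHG, ECM2, REEP6, ABHD11 and REXO5. They are 7 of the 16407 genes in the deposited table, and all 7 were among the 12548 genes that had enough reads to be tested. They were selected on these same libraries, as the largest falls in which the media did not overlap, and by being lesser known. Their fall is therefore a description of how they were chosen and is given with no test.

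C666-1 is an Epstein-Barr virus-positive line of human nasopharyngeal carcinoma cells. One group of 3 libraries, called CM, came from cells kept for 24 h in a complete medium built on MEM without non-essential amino acids, with 4.5 g/L glucose, 0.4 mmol/L serine and 0.4 mmol/L glycine. The other 3 libraries, called -SG, came from cells kept as long in the same medium lacking both amino acids. Both media held 10% dialyzed fetal bovine serum, and both sets of cells were kept at 37 °C in 5% CO2. The study is of 1 cell line. Nothing states that the libraries of a medium are separate cultures, so p-values measure only the spread between these libraries. In bulk RNA, fewer expressing cells and less RNA per cell cannot be told apart.

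Serine and glycine are amino acids that cells can take up or make, and serine is a main source of one-carbon units for nucleotide synthesis. The 7 genes belong to no single pathway. ARFRP1 encodes an ARF-related small GTPase of the trans-Golgi, which acts upstream of the GTPase ARL1 and the golgins it recruits. PGGHG encodes the glucosidase that removes glucose from the disaccharide on hydroxylysine of collagen, and ECM2 encodes a matrix protein with leucine-rich repeats. REEP6 belongs to the receptor expression-enhancing proteins, which shape the endoplasmic reticulum, and is known for its role in rod photoreceptors. ABHD11 is a mitochondrial alpha/beta hydrolase needed to keep the 2-oxoglutarate dehydrogenase complex lipoylated. REXO5 is an RNA exonuclease, whose fly counterpart trims small nucleolar and ribosomal RNAs from the 3′ end. REX1BD is named for a required-for-excision 1-B domain.

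The libraries held 16612196 to 17030355 estimated counts. Their top 10 genes summed to between 3.49% and 4.04% of a library. Within a medium, the libraries numbered 1 stood apart. The chi-square statistic per gene was 13.5 and 9.05 between CM1 and the other CM libraries and 4.14 between those. It was 16.9 and 19.1 between SG1 and the other -SG libraries and 2.76 between SG2 and SG3. Across the media it ran from 9.26 (CM3 and SG2) to 34.0 (CM2 and SG1), with 10.5 between CM1 and SG1. Some libraries of the same medium therefore differed more than some libraries of different media. Of the epithelial markers, KRT8, KRT18, KRT19 and EPCAM were present (KRT19 fell from 65.0 ± 3.59 to 46.5 ± 2.29 CPM, SD, n = 3 each, log2 change -0.48, edgeR adjusted p = 0.0217), while KRT5, KRT14 and CDH1 averaged 0.0483, 0.168 and 0.123 TPM, a transcript level scaled by length and library. The leukocyte marker PTPRC averaged 0.0117 TPM. The 6 leukocyte markers summed to 69.0 to 78.3 TPM in CM and 49.9 to 58.2 TPM in -SG, most of it from the lysosomal gene CD68, which fell by 0.54 on the log2 scale (edgeR adjusted p = 0.0217). CD14, of the same list, was at 1.39 (edgeR adjusted p = 0.0764). The 4 endothelial markers summed to 0.53 to 1.15 TPM in CM and 0.80 to 1.58 TPM in -SG. The part of these markers in the values below was not tested.

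The 250 bases before a start site used by RefSeq were available for 5 of the 7 genes, ARFRP1, ECM2, REEP6, ABHD11 and REXO5. For ARFRP1, ECM2 and REXO5 that start lies inside the RefSeq gene span, so the window overlaps the span by 123 bases in ARFRP1 and by 102 bases in REXO5, and lies wholly within it in ECM2. All 250 bases of the REEP6 and REXO5 windows, and 228 of those of ARFRP1, lie in exons that GENCODE lists for these genes or their overlapping partners. Stretches of them are shown because these genes were low in the same libraries, and the letters let their upstream sequence be compared. The stretches are from RefSeq on GRCh38.p14, written 5′ to 3′ on the gene's strand, with capitals marking the letters of the GC box GGGCGG, of the CCAAT box or of the ETS site CCGGAAG on either strand. For ARFRP1, REXO5 and REEP6 they are 30 bases around motif matches, and for ABHD11 and ECM2 the longest piece outside GENCODE exons. They cover chr20:63708030-63708059 on the minus strand for ARFRP1, chr9:92536093-92536240 on the minus strand for ECM2, chr19:1490947-1490976 on the plus strand for REEP6, chr7:73738868-73739052 on the minus strand for ABHD11 and chr16:20806463-20806492 on the plus strand for REXO5.
ARFRP1: agcgccgccgCTTCCGGAAGtgcttggcgc
REXO5: gCCGGAAGtcgctcgacttctaCTTCCGGt
REEP6: ctctgacaCCGCCCttCCAATcagctacgt
ABHD11: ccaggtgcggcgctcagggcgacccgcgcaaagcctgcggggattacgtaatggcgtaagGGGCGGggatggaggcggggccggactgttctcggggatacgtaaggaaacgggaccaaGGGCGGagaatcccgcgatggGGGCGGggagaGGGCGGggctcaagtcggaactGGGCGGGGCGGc
ECM2: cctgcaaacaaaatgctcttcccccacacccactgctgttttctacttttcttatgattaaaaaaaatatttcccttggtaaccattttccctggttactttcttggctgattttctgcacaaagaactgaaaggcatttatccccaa

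None of the motifs searched was in all 5 windows. The whole 250-base window of ABHD11 held 8 GC boxes, 6 of them in the stretch shown, that of REEP6 held 4 and that of REXO5 held 2, while 67.8% of the 10294 tested genes with a promoter sequence held at least 1. The CCAAT box was found 4 times in the REEP6 window and in none of the other 4, against 35.0% of tested promoters. The ETS site was found in ARFRP1, where the 2 matches are the overlapping strands of one palindrome, and 2 times in REXO5, against 16.2% of tested promoters. No window held the E-box CACGTG (9.06% of tested promoters), the ATF4 response element TGATGNAA (1.33%) or the NRF1 half-site GCATGCGC (4.91%). Among all 27305 promoters of that length, the shares in the same order were 42.3%, 33.0%, 8.82%, 6.49%, 3.19% and 2.81%. The windows were 76.8% GC for ARFRP1, 75.2% for REEP6, 69.2% for ABHD11 and 67.6% for REXO5, all above the tested median of 65.2%, and 36.0% for ECM2.

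Of the 7 genes, ARFRP1 had the deepest fall. Its estimated read counts were 215, 367 and 240 in CM1, CM2 and CM3 and 145, 103 and 87 in SG1, SG2 and SG3. Each -SG library was below each CM library, with CM2 well above the other CM libraries. In CPM (counts scaled to library size with TMM), ARFRP1 went from 16.5 ± 5.01 (SD, n = 3) to 6.57 ± 1.70 (SD, n = 3), a log2 fold change of -1.32 (SE 0.241), or 2.50-fold lower. Without the libraries numbered 1 that log2 change was -1.70.

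REX1BD had 129, 179 and 147 counts in CM and 69, 74 and 61 in -SG. No -SG library reached the lowest CM library. Its CPM went from 9.12 ± 1.58 to 4.01 ± 0.414 (SD, n = 3 each), a log2 change of -1.18 (SE 0.166). As a transcript level per length it was the most abundant of the 7, at 32.0 ± 5.17 TPM in CM and 14.2 ± 2.02 TPM in -SG.

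The matrix-related pair fell by similar amounts. PGGHG had 176, 178 and 148 counts in CM and 93, 78 and 71 in -SG, and ECM2 had 124, 171 and 140 against 79, 68 and 68. For both genes the media did not overlap. The coefficient of variation of the -SG libraries was 7.84% for ECM2 and 13.2% for PGGHG. Counting error alone gives 11.8% and 11.1%, so nothing is read from this difference. PGGHG went from 10.1 ± 1.03 to 4.75 ± 0.625 CPM (SD, n = 3 each; log2 change -1.08, SE 0.147). ECM2 went from 8.72 ± 1.49 to 4.22 ± 0.331 CPM (SD, n = 3 each; log2 change -1.04, SE 0.162). Matrix genes are typical of fibroblasts, and the levels of 7 fibroblast markers were measured beside ECM2: their summed level was 16.3 to 21.0 TPM in CM and 15.5 to 21.0 TPM in -SG, 5 of 7 were tested and 0 of 5 were called. FAP averaged 0.462 TPM and THY1 0.0267 TPM over the 6 libraries, and COL3A1, the most abundant marker, 9.72 TPM. Of the 5 tested markers, 4 had a negative log2 change, and the median was -0.27. PDGFRB had the largest fall, at -0.69 (edgeR adjusted p = 0.0840), while COL1A1 was at 0.19. Their part in the fall of ECM2 was not tested.

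REEP6 was the steadiest of the 7 within a medium, with 176, 153 and 159 counts in CM and 91, 79 and 80 in -SG. Its -SG level was 50.4%, 51.0% and 49.3% of the CM library of the same number, so all 3 pairs halved or nearly so. The CPM means were 9.77 ± 0.663 and 4.91 ± 0.340 (SD, n = 3 each), with a log2 change of -0.99 (SE 0.129).

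ABHD11 and REXO5 completed the group. ABHD11 had 130, 160 and 139 counts in CM and 83.0, 74 and 63 in -SG, and went from 8.60 ± 0.980 to 4.32 ± 0.570 CPM (SD, n = 3 each; log2 change -0.99, SE 0.155). REXO5 had 208, 295 and 198 counts in CM and 153, 116 and 98 in -SG, and went from 14.1 ± 3.30 to 7.20 ± 1.59 CPM (SD, n = 3 each; log2 change -0.96, SE 0.197). REXO5 had the narrowest gap of the 7, its highest -SG library being at 75.0% of its lowest CM library in CPM.

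**Figure D1:**
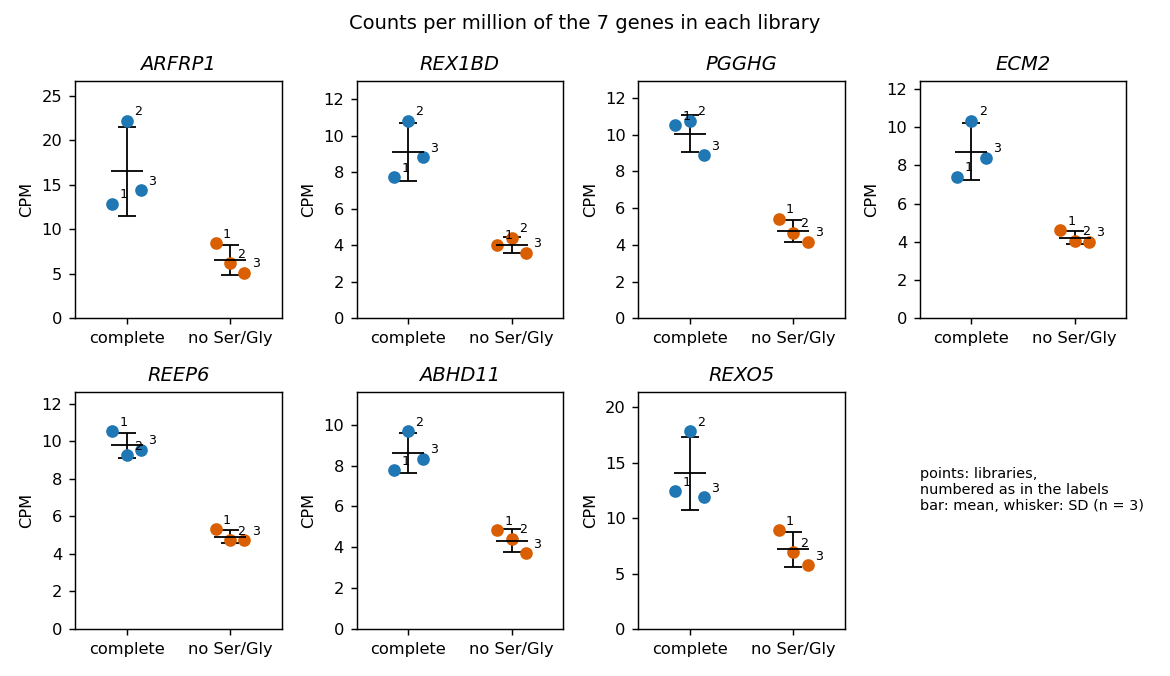
CPM of each of the 7 genes (y axis, linear, from 0) in the 3 CM and 3 -SG libraries (x axis); points are libraries with their label number, the bar is the mean and the whisker the SD (n = 3). In every panel the -SG points lie below the CM points, and CM2 is the highest CM point in 6 of 7 panels.

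Ordered by TPM in CM, the genes ran from REX1BD (32.0 ± 5.17) through ARFRP1 (19.5 ± 5.72), REEP6 (17.2 ± 1.64), ABHD11 (13.9 ± 1.64), REXO5 (11.1 ± 2.35) and ECM2 (5.82 ± 0.831) to PGGHG (5.66 ± 0.636), each a mean ± SD over 3 libraries. ARFRP1 and REEP6, and ECM2 and PGGHG, were neighbours whose means differed by less than the larger of their SDs. The -SG means, in the order REX1BD, REEP6, ARFRP1, ABHD11, REXO5, ECM2 and PGGHG, were 14.2, 8.97, 7.67, 7.04, 5.98, 2.93 and 2.72 TPM.

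All 7 were called lower, a call defined as an edgeR Benjamini-Hochberg adjusted p under 0.05, against 4.22% of tested genes called lower and 2.73% called higher. At least 2-fold lower and called were 4 of the 7, against 0.0877% of tested genes. The libraries did not overlap and were lower in -SG for all 7, against 16.4% of tested genes, and 16.1% were higher without overlap. Because this contrast chose the genes, nothing is read from these counts. Ranked by fall among the 516 genes called lower, free of overlap and at 5 CPM or more in CM, the 7 held ranks 1, 2, 5, 6, 7, 8 and 10. The ranks between them were held by FGF21 (-1.16), SERPINB1 (-1.11) and PYCR3 (-0.96), which are not among the 7. Just outside the last of them stood ICA1 (-0.94) and CHTF8 (-0.92), beside -0.96 for REXO5.

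**Figure D2:**
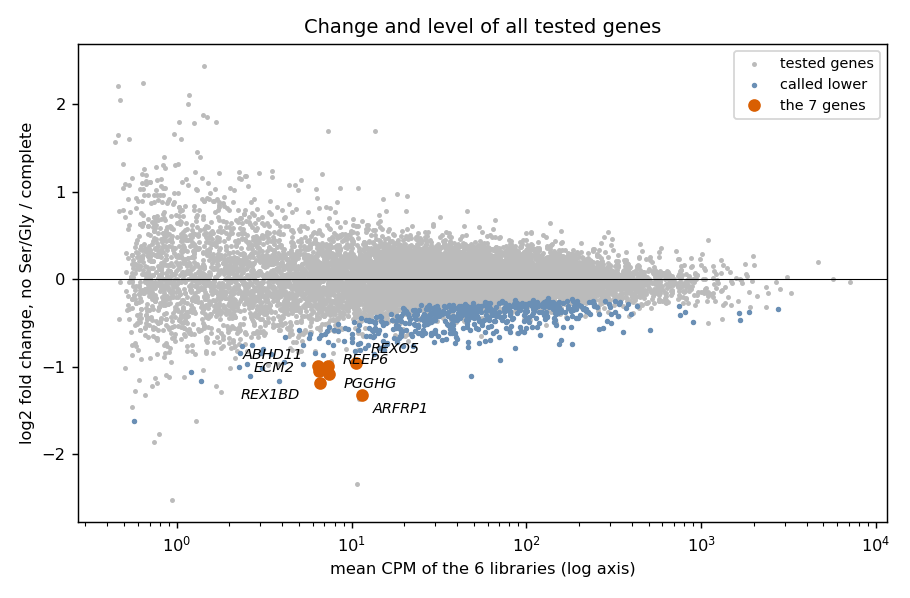
Log2 fold change of -SG over CM (y axis) against mean CPM over the 6 libraries (x axis, log scale) for the tested genes; blue points are genes called lower and orange points are the 7 genes. The 7 sit between -1.32 and -0.96 at modest levels, where they were chosen for their falls.

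The falls were not equal across library numbers. The -SG level as a share of the CM library with the same number was 65.7%, 27.7% and 35.5% for ARFRP1 and 71.7%, 38.8% and 48.5% for REXO5, so both genes fell least between the libraries numbered 1. REX1BD gave 52.1%, 40.8% and 40.7%, PGGHG 51.5%, 43.2% and 47.0%, ECM2 62.1%, 39.2% and 47.6%, and ABHD11 62.2%, 45.6% and 44.4%. The pair numbered 1 had the smallest fall in 6 of 7 genes, all but REEP6, beside 69.5% of the 522 other genes called lower. CM2 was the highest CM library for 6 of 7 genes, beside 83.9% of those 522 and 37.7% of 10591 genes at 5 CPM or more. SG1 was the highest -SG library for 6 of 7, beside 38.9% and 40.4%, and SG3 the lowest for 7 of 7, beside 48.5% and 31.7%. These shares describe the libraries and were not tested. With both libraries numbered 1 left out, the log2 changes were -1.29 for REX1BD, -1.15 for PGGHG, -1.21 for ECM2, -0.99 for REEP6, -1.15 for ABHD11 and -1.22 for REXO5.

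The biological coefficient of variation of the 7 genes, edgeR's estimate of replicate spread beyond counting, ran from 9.27% for REEP6 to 19.7% for ARFRP1. All 7 values were above the median of 8.01% over tested genes, which covers genes at all levels. edgeR draws each value toward those of genes at a similar level, so nothing is read from this comparison. At the depth of these genes, counting error alone gives a coefficient of variation of 6.04% in CM and 9.46% in -SG for ARFRP1 and of 8.36% and 11.7% for ABHD11. Without CM2, without CM3, without SG2 or without SG3, edgeR called 0 of the 7 (7 of 7 at an unadjusted p under 0.05, and 7 of 7 by DESeq2, each time).

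Across the 6 libraries the log2 CPM of the 7 genes had pairwise Pearson r of 0.880 (REEP6 and REXO5) to 0.994 (ARFRP1 and REXO5), values that include the fall they were chosen for. The genes most like each one, out of 10583 candidates, were TAGLN2 and MRPL1 for ARFRP1 (r 0.9998 and 0.9981), CAPNS1 and NBAS for REX1BD (0.9977 and 0.9976) and TIMELESS and WDR90 for PGGHG (0.9984 and 0.9961). They were MPDU1 and ODF2 for ECM2 (0.9991 and 0.9988), TTLL12 and ATG7 for REEP6 (0.9949 and 0.9941), EDF1 and ITGB4 for ABHD11 (0.9972 and 0.9972) and SLC20A2 and ELOVL1 for REXO5 (0.9967 and 0.9965). These r values rest on 6 libraries. At a looser limit, between 94 genes (REEP6) and 399 genes (REX1BD) of the 10583 candidates had r above 0.95 with a gene of the group.

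A second readout in the table bears on transcript length. A gene's count divided by its FPKM and by the library total gives the effective length the authors' software used, which is an average over the gene's isoforms weighted by their estimated abundance. For ARFRP1 it was 1638, 1579 and 1591 bases in CM and 1674, 1725 and 1709 bases in -SG, so the media did not overlap. The mean went from 1603 ± 31.3 to 1703 ± 26.3 bases (SD, n = 3 each), 6.23% longer, a larger absolute change than in 96.3% of genes at an FPKM of 1 or more in every library. PGGHG also did not overlap, at 3376 ± 29.1 and 3451 ± 15.6 bases (SD, n = 3 each), 2.24% longer. Lengths longer in -SG without overlap were found in 3.55% of 10916 genes.

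For the other 5 genes the media overlapped in this length. The change was 3.57% in REX1BD, 2.97% in ABHD11, 0.203% in ECM2, -0.383% in REEP6 and -0.736% in REXO5. No test is given, because the contrast is the one that chose the genes, and 3 libraries against 3 cannot reach a two-sided exact p below 0.1. The median absolute change over all those genes was 0.00549 on the log2 scale, and that of ARFRP1 was 0.09. The estimate rests on the counts quoted above, and how reads were shared among isoforms was not tested.

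**Figure D3:**
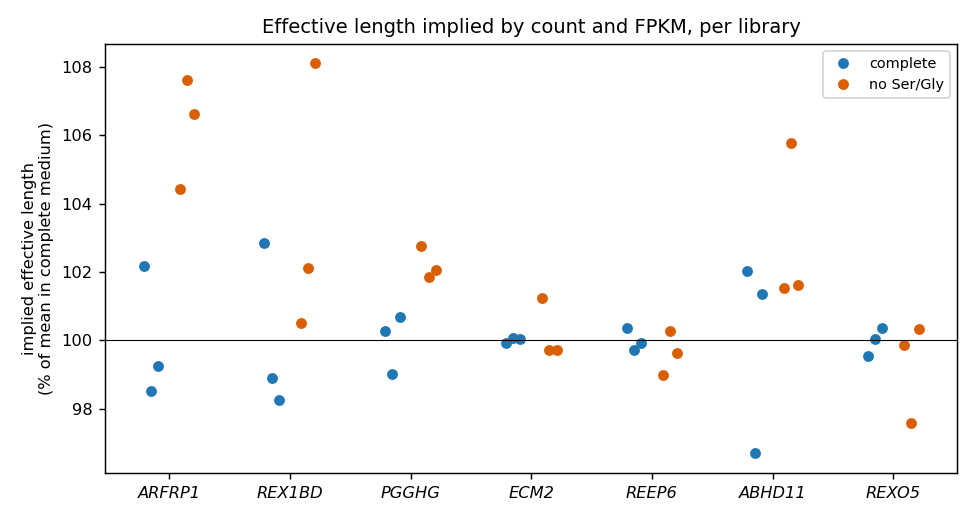
Effective length implied by count and FPKM in each library (y axis, percent of the CM mean) for the 7 genes (x axis); each point is a library. The -SG points of ARFRP1 and PGGHG lie above all their CM points, while those of the other 5 genes overlap.

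The genes are compact apart from ECM2 and REXO5. ARFRP1 spans chr20:63698647-63707976 on the minus strand, REX1BD chr19:18588798-18592337 on the plus strand, PGGHG chr11:289126-296107 on the plus strand and ABHD11 chr7:73736094-73738802 on the minus strand. REEP6 spans chr19:1491181-1497927 on the plus strand, REXO5 chr16:20806425-20849665 on the plus strand and ECM2 chr9:92493547-92559106 on the minus strand, all on GRCh38.p14. Transcript GC content, from GENCODE release 29, was 69.0% for REX1BD, 66.8% for REEP6, 63.6% for PGGHG, 62.9% for ARFRP1 and 59.1% for ABHD11, above the tested median of 49.5%, and 47.7% for REXO5 and 37.7% for ECM2, below it. The median intron was 116 bases in PGGHG, 182 in ABHD11, 260 in ARFRP1, 698.5 in REEP6, 752.5 in REX1BD and 1109 in REXO5, all below the tested median of 1799, and 2880 in ECM2. GENCODE lists a retained-intron transcript for 6 of the 7, all but ECM2, and for 57.7% of tested genes.

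These features moved with the call across all tested genes. By deciles of median intron length, the share of genes called lower went from 9.27% in the decile with the shortest introns, which holds ARFRP1, PGGHG and ABHD11, to 1.81% in that with the longest. It was 5.0% in decile 3, with REX1BD and REEP6, 5.25% in decile 4, with REXO5, and 2.47% in decile 7, with ECM2. By transcript GC it went from 1.37% in the lowest decile, which holds ECM2, to 7.40% in the highest, which holds ARFRP1, REX1BD, PGGHG and REEP6. Decile 5, with REXO5, was at 2.49%, and decile 9, with ABHD11, at 6.43%. By transcript length it was 5.63% in the shortest decile, which holds REX1BD, 7.56% in decile 2, which holds ABHD11, 6.26% in decile 3, which holds REEP6, and 1.69% in the longest. Decile 4, with ARFRP1, was at 5.23%, decile 5, with REXO5, at 4.26%, and decile 6, with PGGHG and ECM2, at 4.02%. The part of these features in the falls of the 7 genes was not tested.

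**Figure D4:**
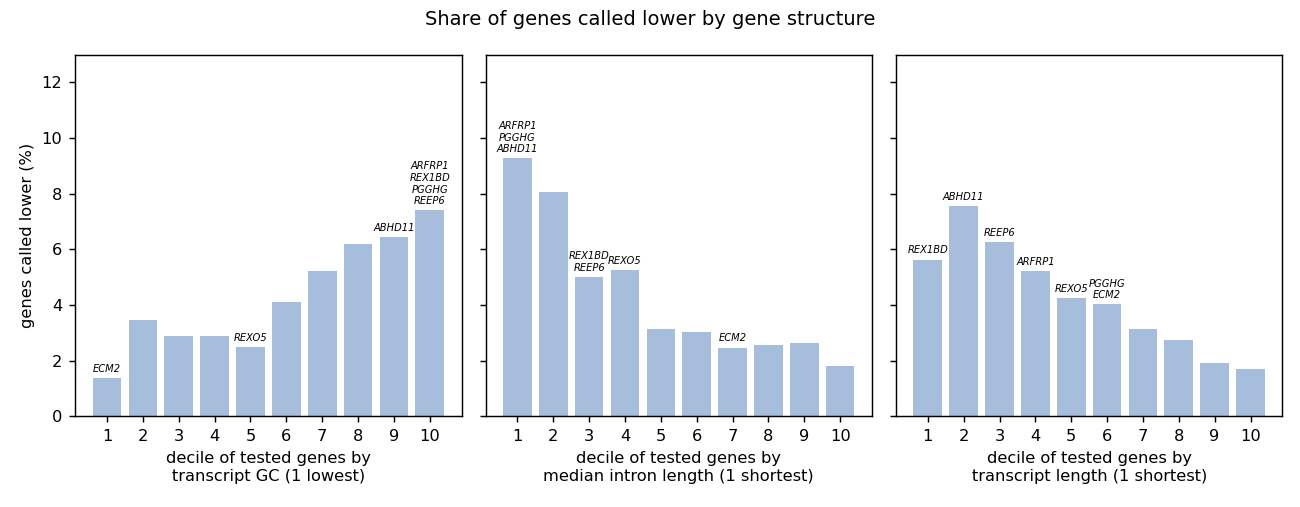
Share of tested genes called lower (y axis, percent, from 0) in deciles of transcript GC, median intron length and transcript length (x axes, 1 is the lowest or shortest); names above a bar show which of the 7 genes lie in that decile. The share is 9.27% in the decile with the shortest introns and 1.81% in that with the longest.

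No label gives the strandedness of the kit, so reads in sequence that a gene shares with a partner on the opposite strand cannot be told apart. The RefSeq span of ARFRP1 overlaps that of ZGPAT, on the opposite strand, by 535 bases. Of the 50-base stretches of ARFRP1 transcripts, 1.35% were shared with ZGPAT. ZGPAT was at a log2 change of 0.01 (SE 0.0917, adjusted p = 0.947). ECM2 lies wholly inside the span of CENPP on the opposite strand, and CENPP was at -0.22 (SE 0.134, adjusted p = 0.307). That overlap is one of spans, since 0% of the 50-base stretches of ECM2 transcripts were shared with another gene. The RefSeq spans of REXO5 and ERI2, another exonuclease gene, overlap head to head by 48 bases. Their GENCODE transcripts share more, with 196 of the 50-base stretches of REXO5 (5.11%) found in ERI2 on the opposite strand. ERI2 was at -0.04 (SE 0.0864, adjusted p = 0.819). None of these 3 opposite-strand partners was called lower by edgeR with Benjamini-Hochberg adjustment. TNFRSF6B, whose RefSeq span overlaps that of ARFRP1 by 38 bases, was too low to be tested.

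The nearest tested genes on either side of 6 of the 7 were mostly not called. RTEL1, a DNA helicase gene 2394 bases from ARFRP1, fell from 15.1 ± 2.98 to 8.74 ± 0.924 CPM (SD, n = 3 each; log2 change -0.79, SE 0.154, edgeR adjusted p = 0.0250). PSMD13, a proteasome subunit gene next to PGGHG, fell by 0.39 on the log2 scale (SE 0.0872, edgeR adjusted p = 0.0328). IFITM2, on the other side of PGGHG, was at -0.24 (adjusted p = 0.150, and 0.0273 with the replicate number as a block). Around REEP6, PCSK4 was at -0.54 (adjusted p = 0.333) and ADAMTSL5 at -0.02. STX1A and CLDN3 beside ABHD11 were at 0.17 and -0.21, NOL8 and IPPK beside ECM2 at -0.08 and -0.03, ACSM3 and DCUN1D3 beside REXO5 at -0.03 and -0.08, and LIME1 beyond ZGPAT at 0.23. Of these 15 overlapping or neighbouring genes 2 were called lower and 0 higher (edgeR), beside 4.22% and 2.73% of all tested genes. The log2 change was negative in 12 of the 15, beside 50.2% of all tested genes, and its median was -0.08. Some were near the floor: PCSK4, CLDN3 and ACSM3 averaged 1.26, 1.54 and 1.99 CPM in CM. What these shares mean for the 7 genes was not tested.

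Among genes with the most similar proteins, REEP5, REXO1 and DCN were tested and not called lower. REEP5, the human protein most like REEP6 (58.6% identity over 174 residues), was at a log2 change of 0.04 (adjusted p = 0.751, edgeR). REXO1, the closest to REXO5 (40.8% over 169 residues), was at 0.24 (edgeR adjusted p = 0.116, and 0.0198 with the replicate block). DCN, the gene of the proteoglycan decorin, the closest to ECM2 (33.6% over 238 residues), was at -0.42 (edgeR adjusted p = 0.213). EPHX4, the closest to ABHD11 (24.4% over 275 residues), was not analysed here, and no other human protein matched REX1BD or PGGHG at an E value of 1e-05. Transcript sequence shared with other genes was also limited: 0% of 50-base words of REX1BD, PGGHG, ECM2 and REEP6, 1.35% for ARFRP1, 3.11% for ABHD11 and 5.37% for REXO5, where ERI2 on the opposite strand held 5.11%.

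**Figure D5:**
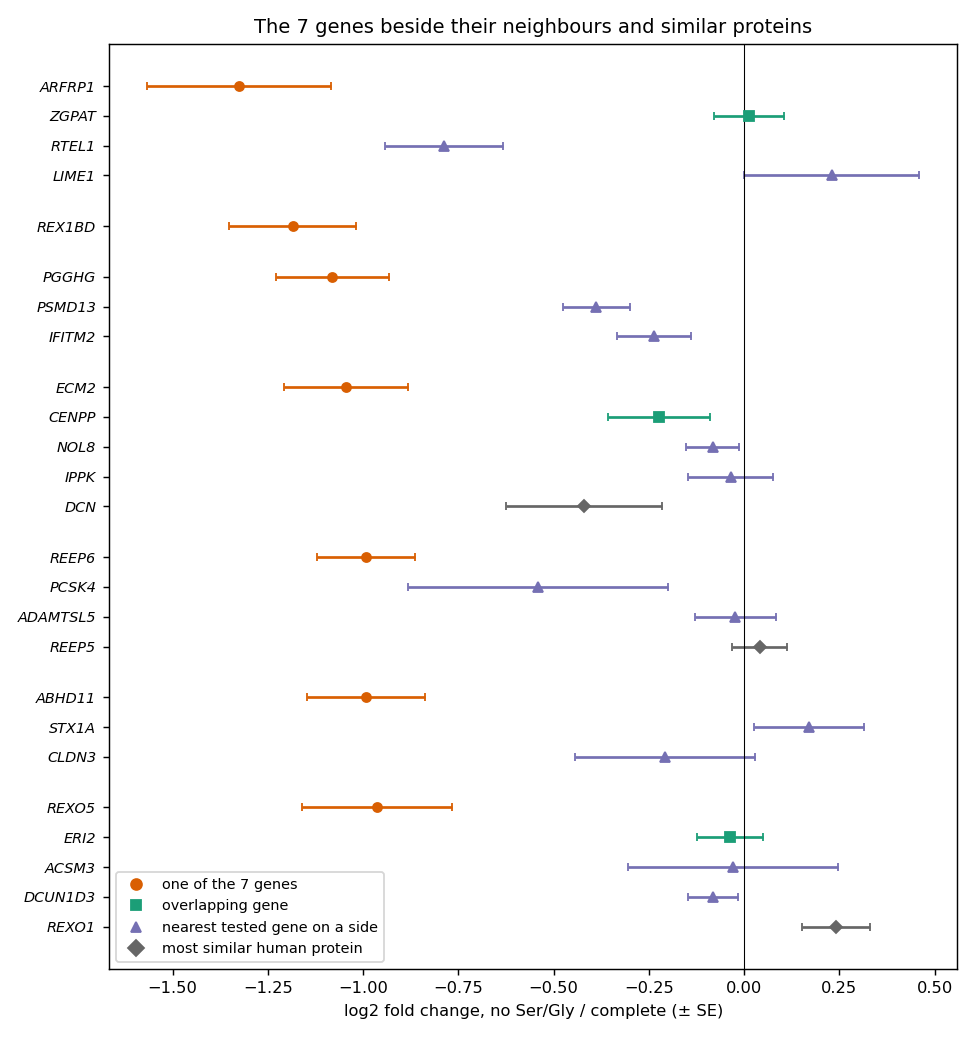
Log2 fold change of -SG over CM (x axis; whiskers are the SE) for the 7 genes (circles) and, where reported, overlapping genes (squares), the nearest tested genes (triangles) and the genes of the most similar proteins (diamonds). RTEL1 at -0.79 and PSMD13 at -0.39 are the neighbours called lower.

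The other genes of the pathways around the 7 were called about as often as tested genes at large. Of 158 listed genes other than the 7, 141 were tested, 7 (4.96%) were called lower and 5 (3.55%) higher by edgeR, beside 4.22% and 2.73% of all tested genes. Their median log2 change was -0.01 beside -0.00 over all tested genes. With the replicate number as a block, 18 (12.8%) were called lower and 16 (11.3%) higher, beside 13.2% and 11.1% of all tested genes.

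Around ARFRP1, the trans-Golgi list had 2 of 17 tested genes lower and 1 higher, with a median of 0.06. VPS52 (-0.47, SE 0.0727, edgeR adjusted p = 0.0217) and VPS51 (-0.32, SE 0.0714, adjusted p = 0.0327), which are subunits of the GARP tethering complex, fell. The golgin gene GCC1 rose by 0.29 (SE 0.0740, edgeR adjusted p = 0.0439). With the block the counts were 4 lower and 5 higher. Of 23 tested ARF and ARL family GTPases 0 were lower and 1 higher (block: 1 and 6), the COPII coat GTPase SAR1A at 0.22 (edgeR adjusted p = 0.0432). ARF1, the most abundant of them, was at 0.17 (adjusted p = 0.164).

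Around PGGHG, 0 of 15 tested collagen-modifying genes were called in either direction, with a median of -0.09 (2 lower with the block), and PPIB, the most abundant, a prolyl isomerase, was at 0.08. Around ECM2, 0 of 7 tested small leucine-rich matrix genes were called, with a median of -0.25, and 0 were called with the block. The most abundant of those, TSKU, was at -0.08. Around REEP6, 0 of 17 tested genes of the REEP family and other shapers of the endoplasmic reticulum were called by edgeR with or without the block, with a median of 0.04. RTN4, the most abundant of those 17, was at 0.02.

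Around ABHD11, no lower call was made among 18 tested ABHD hydrolases (1 with the block) and 2 rose with or without it, ABHD4 at 0.50 (SE 0.104, edgeR adjusted p = 0.0277) and ABHD17C at 0.41 (SE 0.0892, edgeR adjusted p = 0.0314). Of the 8 genes of 2-oxoglutarate dehydrogenase and lipoylation 1 was lower, OGDH, a catalytic subunit of the complex. OGDH went from 159 ± 8.37 to 126 ± 8.0 CPM (SD, n = 3 each, log2 change -0.34, edgeR adjusted p = 0.0265). The median of the 8 was -0.23, and 2 were lower with the block.

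Around REXO5, 0 of 21 tested RNA 3′ exonuclease genes were lower and 1 was higher, AEN, a p53-responsive nuclease gene, at 0.48 (SE 0.0956, edgeR adjusted p = 0.0255), with a median of -0.00 (2 lower and 3 higher with the block). The small nucleolar ribonucleoprotein list had 4 of 16 genes lower and 0 higher, with a median of -0.11 (6 and 1 with the block). The box C/D core gene NOP56 fell from 146 ± 21.2 to 93.7 ± 2.55 CPM (SD, n = 3 each; log2 change -0.64, edgeR adjusted p = 0.0217). The assembly factors RUVBL2 (-0.39, adjusted p = 0.0221) and PIH1D1 (-0.41, adjusted p = 0.0251) and the box H/ACA gene GAR1 (-0.43, adjusted p = 0.0380) were the other members called by edgeR. NOP10, the most abundant of the list, was at -0.22 (adjusted p = 0.0963). Leaving out CM2, CM3, SG2 or SG3 left 0 of the listed genes called lower by edgeR, with 11 to 17 at an unadjusted p under 0.05 and 3 to 6 called lower by DESeq2.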

How the data were processed

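The authors deposited 1 table with, for each gene and library, an expected count, an FPKM and a TPM value. RSEM 1.3.1, Bowtie2 2.3.4.3 and the build GRCh38 are listed, without their roles, in the submitters' processing notes. No annotation release is named there. Of the count values, 15.2% to 16.0% per library were not whole, and they were rounded. edgeR 4.0.16 (R 4.3.3; filterByExpr with a minimum count of 10 and total of 15, TMM, robust quasi-likelihood test, medium as the only term) was fitted to all genes. Alternatives were library totals, DESeq2 1.42.0, no filter, limma 3.58.1 on log2(FPKM + 1), log2(TPM + 1) and log2(TPM + 0.1), a replicate block, and libraries left out. The edgeR script was tested on simulated data. Same-numbered libraries deviated together (r 0.467, 0.147 and 0.236 for numbers 1, 2 and 3), although CM3 correlated better with SG2 (0.338). On that criterion alone, the numbers were used to pair libraries for the percentages by library number and for the replicate block. Deviations were taken from the mean of each medium, so a deviation shared by the libraries numbered 1 by itself pushes the other correlations upward. CM2 and SG3 were also positive (0.0587). The values for numbers 2 and 3 therefore cannot show that those libraries pair by number. The main fit did not use this pairing, since no label states it. Of 16407 genes, 16352 matched RefSeq by gene number. Proteins were translated from GENCODE release 29 and compared with BLAST 2.17.0. The 7 genes and the gene lists were chosen with earlier results of these data known. Genes named beside the 7 were, by rule, the overlapping and nearest tested genes, the closest protein, the 2 most alike genes, up to 4 called genes and the most abundant one of each list, and the genes next in the order of falls. Some genes this rule names are not reported here. Intervals and spreads cover these libraries only.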

Additional observations from a re-analysis of the deposited data

How the results depend on the processing

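Each of the 7 genes kept a negative log2 change in all 14 alternatives (98 of 98 values), and 68 of the 98 values were still called. The 7 were chosen for falls without overlap in these same libraries, so their direction could hardly change and nothing is read from it. limma on log2(TPM + 1) and on log2(TPM + 0.1) each called 6 of 7, losing REXO5 (adjusted p = 0.0584 and 0.0606), and leaving out 1 library gave 0 to 7 of 7. ARFRP1 ranged from -1.70 to -1.05 over the alternatives and ECM2 from -1.21 to -0.69. Over all genes, where 529 were called lower and 343 higher, the counts were 330 and 193 with limma on log2(FPKM + 1), 103 and 46 with limma on log2(TPM + 1), 103 and 46 with log2(TPM + 0.1), 1657 and 1387 with the replicate block, and 1947 and 1696 with both libraries numbered 1 left out. Of the listed genes, 7 lower and 5 higher became 1 and 0 with limma on either TPM scale, 18 and 16 with the block, and 23 and 14 without the libraries numbered 1. With 1 library left out, genes called lower ranged from 0 to 979 and higher from 0 to 758, and listed genes from 0 to 12 lower and 0 to 8 higher; the zeros came without CM2, CM3, SG2 or SG3 by edgeR, where 1165 to 1530 genes were lower and 1008 to 1316 higher at an unadjusted p under 0.05, and where DESeq2, whose use with a library left out was chosen after seeing the data, called 166 to 390 lower and 66 to 200 higher. Without SG1, edgeR called 979 lower and 758 higher. The block changed no call of the 7 genes. The cause of these shifts was not tested. The 7 genes had 61 to 367 reads per library, so counting error limits the precision of each value.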
